A study of Mus musculus with 12 samples.

Results

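The constitutive proteasome is the set of genes described here in mouse liver lacking the autophagy gene Atg7. Its 32 members were chosen by name, as the subunits of the core particle and of the regulatory particle together with the assembly factor Pomp. Earlier results of these data were known when they were chosen. All 32 were named on the array, by 56 probes. A total of 28 had a probe detected on enough arrays to be tested, out of 10711 genes tested in all. Psma1, Psma3, Psma6 and Psmd3 were detected on 0 of 12 arrays by any of their probes, and are given no value.

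The proteasome is the protease of the cytosol and nucleus that degrades proteins tagged with ubiquitin, and it works beside autophagy, which delivers proteins and organelles to the lysosome. Its barrel-shaped core is built of alpha rings, which form the gate, and beta rings, which hold the catalytic sites. The regulatory particle on its end has a base, whose ATPases unfold the substrate and thread it into the core, and a lid, which removes the ubiquitin chain. Subunits are assembled in fixed proportions, and in mammalian cells the transcription factor Nfe2l1 (Nrf1) is known to raise their genes together when proteasome activity is short.

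Whole-liver RNA from 12 mice aged 2 months was hybridised to MouseWG-6 v2.0 arrays, 4 arrays per group, with both Atg7 alleles floxed in every animal. The Atg7 KO group (Alb-Cre:Atg7 FF) carried Cre under the albumin promoter, active in hepatocytes, and all 4 of its livers were male. The Olig1-Cre group (Olig1-Cre:Atg7 FF) carried Cre driven by Olig1, a gene best known from the oligodendrocyte lineage, and held 1 male and 3 females. The control group (Atg7 FF) had no Cre, held 1 male and 3 females, and was drawn from both lines, 2 livers from each. None of the sources used here says which liver cells Olig1-Cre recombined in, and the labels call both Cre groups Atg7 conditional knockouts. Each of the 2 chips carried 2 arrays of each group. The Atg7 probe was detected on 2 of 12 arrays, so it could not check the deletion. Controls served both Cre groups, so the 2 comparisons with control share their 4 control arrays.

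The share of probes detected was 39.8% to 43.9% in Atg7 KO, 39.1% to 41.9% in Olig1-Cre and 34.2% to 37.8% in control livers, and the median probe signal ran from 93.6 to 96.9, from 88.8 to 95.3 and from 79.8 to 90.6. The lowest control on both measures was replicate 1, the male control. Of 7 hepatocyte markers tested, 5 were lower and 0 higher in Atg7 KO than in control, and their mean log2 level was 12.47 to 12.69 in Atg7 KO, 12.55 to 13.14 in Olig1-Cre and 13.06 to 13.35 in control. Of 7 macrophage markers 6 were higher, with a mean log2 level of 7.78 to 8.23 in Atg7 KO, 7.47 to 8.44 in Olig1-Cre and 6.74 to 7.23 in control. Of 8 stellate and fibroblast markers 6 were higher, at 6.59 to 7.39, 6.08 to 6.63 and 5.51 to 5.82 in the same order, and 3 of 4 cholangiocyte markers were higher, at 5.51 to 6.35, 4.91 to 5.32 and 4.61 to 5.08. Neutrophil markers had 1 of 4 higher, at 5.32 to 6.03, 5.44 to 6.55 and 4.59 to 5.48. Endothelial markers had 1 higher and 1 lower of 4. Of 5 lymphocyte markers listed 1 could be tested, Cd3e, at 0.26 in Atg7 KO (limma adjusted p = 0.152) and called higher in Olig1-Cre at 0.52 (limma adjusted p = 0.0441). Col1a2, Timp1, Krt19, Cftr, Ngp and Camp, all in these lists, were detected in no control. In whole tissue fewer cells of a type and less RNA per cell cannot be told apart, and the part of these shifts in the proteasome values was not tested.

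Most proteasome genes differed little in level between Atg7 KO and control livers. Of the 28 members, Psmd8, a lid subunit, was higher, Psmc1 and Psmc6, ATPases of the base, were lower, and the other 25 did not pass the test (limma, two-sided, Benjamini-Hochberg adjusted over all genes, called at an adjusted p under 0.05). This is 10.7% of members, where 34.8% of all genes were called, 19.5% higher and 15.3% lower. The log2 fold change was above 0 for 14 members and below 0 for 14, with a median of −0.0020 beside −0.0069 over all genes. The median size of the log2 fold change regardless of sign was 0.12 among members and 0.32 among all genes. Of the members 19 lay within 0.25 of 0 on the log2 scale, which 41% of all genes did, and for 16 members the whole 95% interval lay within 0.5 of 0, as for 25% of all genes. A miss of the threshold does not show an equal level: the interval of a member reached a median of 0.29 to either side. Members also varied less within groups, with a median pooled SD of 0.17 on the log2 scale against 0.23 over all genes.

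**Figure D1:**
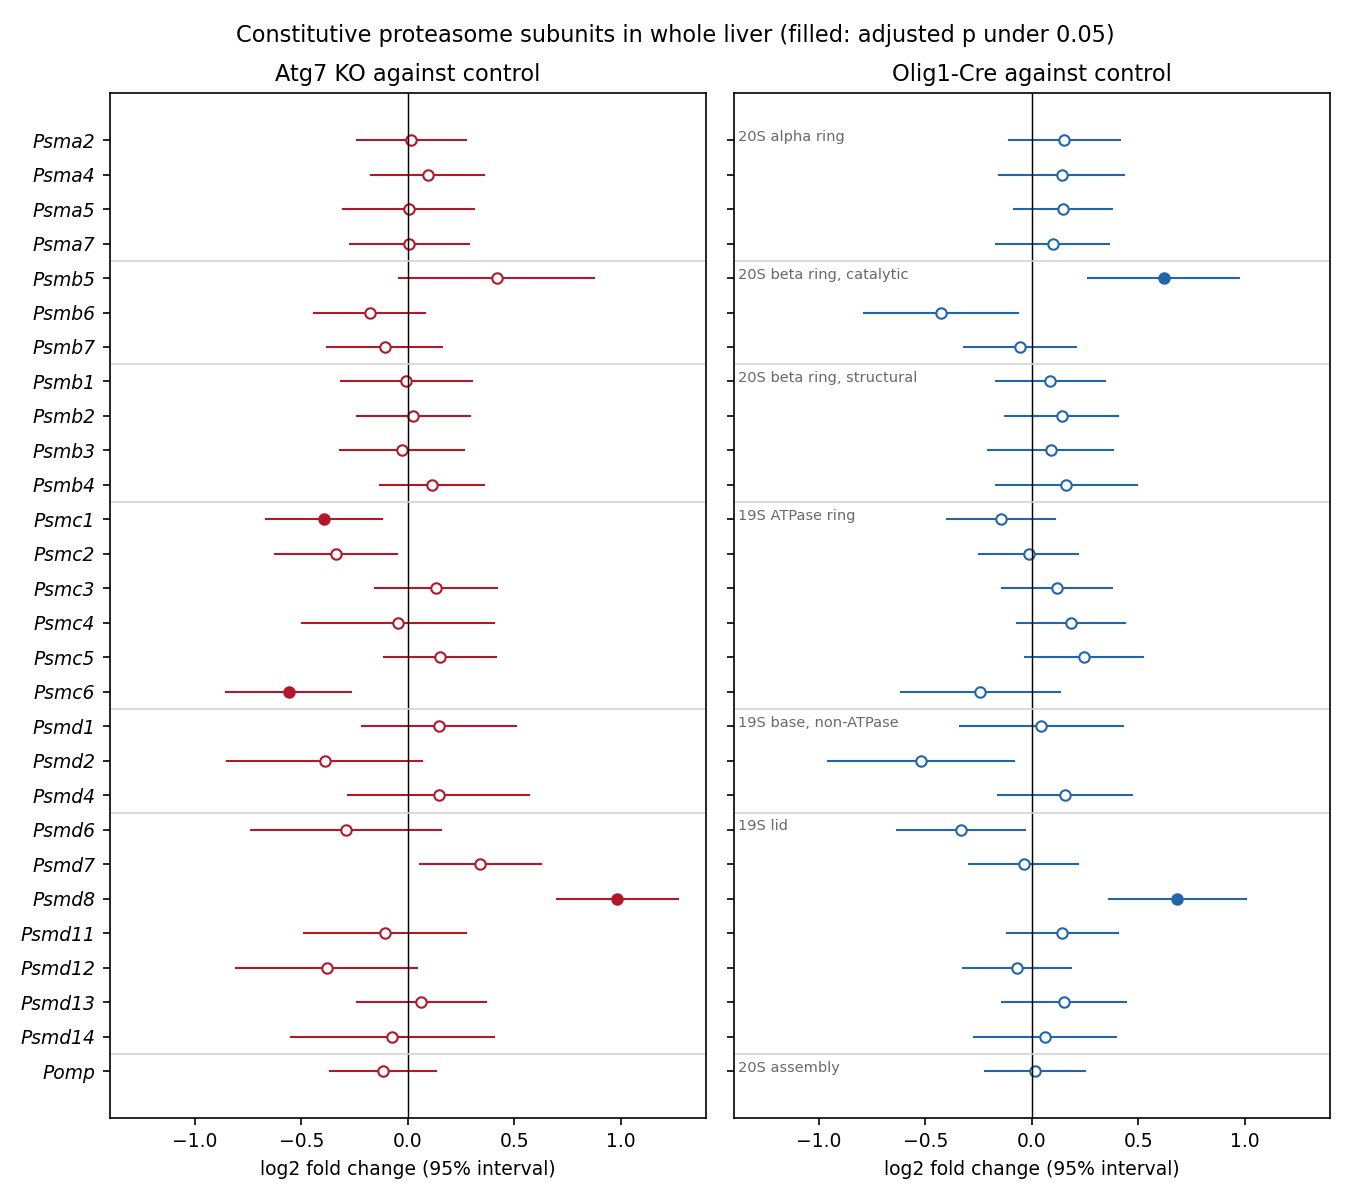
Log2 fold change of each tested member with its 95% interval, Atg7 KO against control on the left and Olig1-Cre against control on the right, ordered by subunit class; filled points passed an adjusted p under 0.05. Most of the 28 points lie near 0, Psmd8 stands highest in both panels at 0.98 and 0.68, and both panels share the 4 control arrays.

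Psmd8 is the lid subunit known in yeast as Rpn12, the last to join the lid during assembly. Its log2 values were 10.75, 10.96, 11.12 and 10.72 in the Atg7 KO livers and 10.74, 10.21, 10.81 and 10.59 in the Olig1-Cre livers. The controls had 9.90, 9.87, 9.99 and 9.86. All 8 Cre livers lay above all 4 controls, and the 2 Cre groups overlapped each other. The difference from control was 0.98 in Atg7 KO (SE 0.13, 1.98-fold, limma adjusted p = 0.000265) and 0.68 in Olig1-Cre (SE 0.14, 1.61-fold, limma adjusted p = 0.0105). Atg7 KO exceeded Olig1-Cre by 0.30 (95% interval −0.06 to 0.66, limma adjusted p = 0.422), so a difference between the Cre groups was not shown.

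Within chip 1 the Psmd8 difference of Atg7 KO from control was 0.97 and within chip 2 it was 0.997 (limma adjusted p = 0.0232 and 0.0273). The 1 male control gave a difference of 0.99, a comparison with a single liver whose own spread is not measured. Among control and Olig1-Cre livers males differed from females by −0.26 (limma adjusted p = 0.430). In Olig1-Cre the call did not pass within chip 1 (0.59, limma adjusted p = 0.422) or against the 2 controls of the Olig1 line (0.73, limma adjusted p = 0.0610). The values came from 1 probe (ILMN_2678019), whose signal before normalization was 1984 to 2939 in Atg7 KO, 1081 to 2336 in Olig1-Cre and 407.1 to 958.8 in control livers. The lowest control signal was that of replicate 1, an array dimmer as a whole (for Psma2 1434 against 2959 to 3280 in the other controls), and the other 3 had 848.2 to 958.8. The other Psmd8 probe (ILMN_2546047) was detected on 0 of 12 arrays and stayed out of the value.

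The stretch before the Psmd8 start is printed because this member had the largest difference of the 28 in both comparisons with control. It was searched on both strands for TGACNNNGC, the core of the antioxidant response element read by Nrf2 and Nfe2l1, and for CCAAT, the box bound by NF-Y, in RefSeq windows of 300 bases (250 before to 50 after the start, build GRCm38.p6). The 250 bases before the start, chr7:29180674-29180923 on the minus strand, hold neither motif and so no capitals.
Psmd8: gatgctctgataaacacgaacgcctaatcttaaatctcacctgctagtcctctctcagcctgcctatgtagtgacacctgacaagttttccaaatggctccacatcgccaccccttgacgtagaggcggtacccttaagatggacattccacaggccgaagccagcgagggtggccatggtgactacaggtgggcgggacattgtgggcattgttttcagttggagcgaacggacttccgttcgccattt
No match says only that these letters are not in this window.

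The catalytic subunits Psmb5, Psmb6 and Psmb7, which carry the chymotrypsin-like, caspase-like and trypsin-like activities, gave differences from control of either sign. Psmb5 had log2 values of 9.35, 8.41, 9.36 and 9.27 in Atg7 KO. In Olig1-Cre they were 9.62, 9.08, 9.51 and 8.997, and in control 8.67, 8.56, 8.69 and 8.81. All 4 Olig1-Cre livers and 3 of the 4 Atg7 KO livers lay above every control, while Atg7 KO replicate 2 lay below every control. Psmb5 was higher in Olig1-Cre than in control by 0.62 (SE 0.16, 1.54-fold, limma adjusted p = 0.0237). In Atg7 KO the difference was 0.42 with a 95% interval of −0.04 to 0.87 (SE 0.21, limma adjusted p = 0.144). Without Atg7 KO replicate 2 it was 0.64 (limma adjusted p = 0.00498). The Olig1-Cre call did not pass without Olig1-Cre replicate 1 or 3 (limma adjusted p = 0.0689 and 0.0759) or without control replicate 2 or 3 (0.0606 and 0.0592), nor within chip 1 (0.74, limma adjusted p = 0.353) or chip 2 (0.50, limma adjusted p = 0.181).

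Psmb6 had log2 values of 10.84, 10.68, 10.59 and 10.86 in Atg7 KO. The Olig1-Cre livers had 10.21, 10.83, 10.23 and 10.72, and the controls 10.90, 10.88, 10.88 and 11.04. By the median of its 2 probes both Cre groups lay below every control. Neither difference passed the test, at −0.18 in Atg7 KO (SE 0.12, limma adjusted p = 0.264) and −0.42 in Olig1-Cre (SE 0.16, limma adjusted p = 0.0870). Probe ILMN_2777337 overlapped, reaching 11.02 in Atg7 KO and 10.96 in Olig1-Cre where the lowest control had 10.90. ILMN_2895862 overlapped in Atg7 KO alone, reaching 10.80 there and 10.70 in Olig1-Cre where the lowest control had 10.77. In Olig1-Cre the 2 livers with the highest Psmb5, replicates 1 and 3, had the lowest Psmb6. Without Olig1-Cre replicate 2, the male, the Psmb6 difference was −0.54 (limma adjusted p = 0.0275).

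Psmb7 had 10.52, 10.59, 10.26 and 10.42 in Atg7 KO, 10.65, 10.52, 10.54 and 10.31 in Olig1-Cre and 10.68, 10.45, 10.51 and 10.58 in control. The groups overlapped, and the differences from control were −0.11 (SE 0.12, limma adjusted p = 0.525) and −0.05 (SE 0.12, limma adjusted p = 0.784). Between the Cre groups Psmb5 differed by −0.20 (SE 0.24, limma adjusted p = 0.733), Psmb6 by 0.24 (SE 0.17, limma adjusted p = 0.537) and Psmb7 by −0.06 (SE 0.12, limma adjusted p = 0.876), Atg7 KO minus Olig1-Cre.

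**Figure D2:**
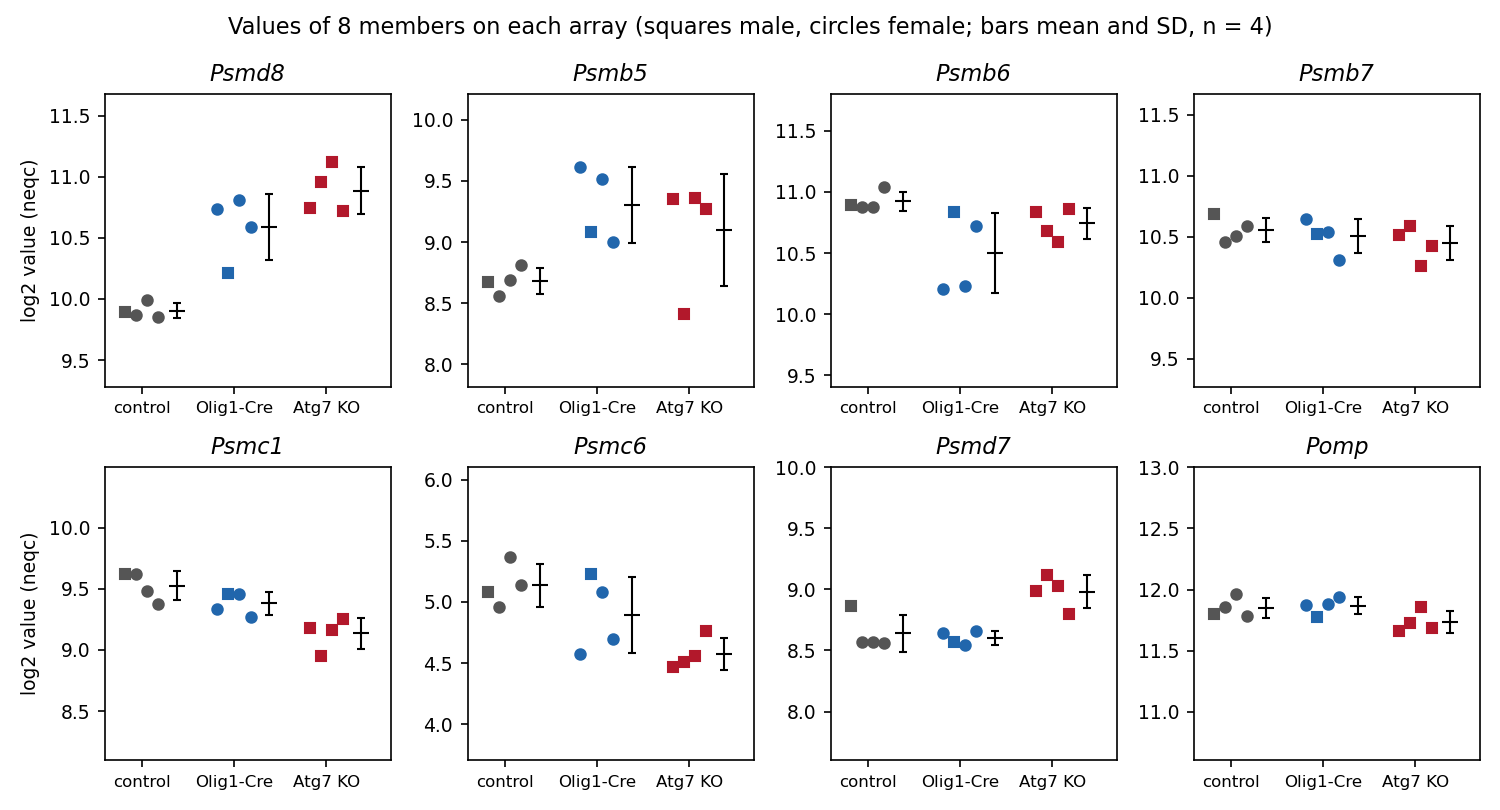
Log2 value of 8 members on each of the 12 arrays, squares for male and circles for female livers, with the mean and SD of each group (n = 4); every panel spans the same log2 range. Psmd8 separates all 8 Cre livers from the controls, Psmb5 is low in 1 Atg7 KO liver at 8.41, and Psmb6 is lowest in 2 Olig1-Cre livers at 10.21 and 10.23.

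Promoters were shown for Psmb5 and Psmb6 because both hold the TGACNNNGC core near the start, as 2 of the 4 members that hold it. Of the 32 members 26 had a RefSeq promoter window, 28 windows in all. The core was found in 4 windows, 14.3%, beside 12.4% of 32851 windows of all genes, and among windows of Nrf2 target genes in 9 of 26. CCAAT was found in 10 of the 28 member windows, 35.7%, beside 37.4% of all windows. The 250 bases before the start are chr14:54617996-54618245 on the minus strand for Psmb5 and chr11:70525107-70525356 on the plus strand for Psmb6, with the core in capitals, from position −47 in Psmb5 and −9 in Psmb6 counted back from the start.
Psmb5: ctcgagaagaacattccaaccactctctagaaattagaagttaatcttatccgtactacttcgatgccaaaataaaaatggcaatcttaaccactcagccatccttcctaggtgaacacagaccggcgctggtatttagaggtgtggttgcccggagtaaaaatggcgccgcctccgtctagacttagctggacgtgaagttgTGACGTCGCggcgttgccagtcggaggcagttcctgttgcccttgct
Psmb6: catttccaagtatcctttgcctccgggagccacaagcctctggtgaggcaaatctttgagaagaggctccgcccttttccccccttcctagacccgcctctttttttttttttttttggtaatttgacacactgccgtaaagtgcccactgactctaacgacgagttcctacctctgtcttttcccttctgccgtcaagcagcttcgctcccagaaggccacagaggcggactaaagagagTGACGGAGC
The other matches were GCTAAGTCA in Psmc6 and GCTGTGTCA in Psmd12, both the core read on the opposite strand, at −227 and −247. Psmb5, with 1 match, was called higher in Olig1-Cre. Psmb6, Psmc6 and Psmd12, with 1 match each, all had log2 fold changes below 0 in both comparisons with control, and Psmc6 was the only one of the 3 called, in Atg7 KO. A match is a run of letters and not a measured binding site.

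Among the ATPases of the base, which form the ring that unfolds substrates, 2 of 6 were lower in Atg7 KO, where 15.3% of all genes were. The class median was −0.19, with differences from −0.56 to 0.15. Psmc1 (Rpt2 in yeast, a subunit whose tail opens the core gate) had log2 values of 9.18, 8.95, 9.16 and 9.25 in Atg7 KO. The Olig1-Cre livers had 9.34, 9.46, 9.46 and 9.27, and the controls 9.62, 9.62, 9.48 and 9.38. Each Atg7 KO liver lay below all 8 others. The difference from control was −0.39 (SE 0.12, 1.31-fold lower, limma adjusted p = 0.0306) and that from Olig1-Cre was −0.25 (SE 0.11, limma adjusted p = 0.359). The call was close to the threshold and did not pass without Atg7 KO replicate 1 or 2 (limma adjusted p = 0.0585 and 0.0837) or without control replicate 1, 2 or 3 (0.0599, 0.0802 and 0.0602), nor against the 2 controls of the Alb line (−0.42, limma adjusted p = 0.0892). Within chip 1 the difference was −0.56 and within chip 2 −0.22 (limma adjusted p = 0.0879 and 0.449), and against the 1 male control it was −0.49.

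Psmc6 had log2 values of 4.47, 4.51, 4.56 and 4.77 in Atg7 KO, 4.57, 5.23, 5.08 and 4.70 in Olig1-Cre and 5.08, 4.96, 5.37 and 5.14 in control. Its 1 tested probe was near background, detected in 2 of 4 Atg7 KO, 3 of 4 Olig1-Cre and 4 of 4 control livers. The difference from control was −0.56 in Atg7 KO (SE 0.13, limma adjusted p = 0.00821) and −0.24 in Olig1-Cre (SE 0.17, limma adjusted p = 0.332), and the Cre groups differed by −0.32 (SE 0.16, limma adjusted p = 0.400). Within the chips the Atg7 KO difference was −0.53 and −0.59 (limma adjusted p = 0.0895 and 0.0940), and against the 1 male control it was −0.50.

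Psmc2 had the lowest difference between the Cre groups, with 8.83, 8.72, 8.87 and 9.15 in Atg7 KO, 9.18, 9.21, 9.23 and 9.24 in Olig1-Cre and 9.22, 9.31, 9.29 and 9.10 in control. All 4 Atg7 KO livers lay below the Olig1-Cre livers, at −0.33 (SE 0.12, limma adjusted p = 0.262), and overlapped the controls, at −0.34 (SE 0.13, limma adjusted p = 0.0647). Against control it passed without Atg7 KO replicate 4 (−0.43, limma adjusted p = 0.0301) and with all 12 arrays in 1 fit (−0.34, limma adjusted p = 0.0313). Its 2 probes gave log2 fold changes against control of −0.65 and −0.03. The remaining ATPases, Psmc3, Psmc4 and Psmc5, had differences from control of 0.13, −0.05 and 0.15. Psmc5 was the third highest member in Olig1-Cre at 0.25 (SE 0.12, limma adjusted p = 0.180), with 9.86, 9.69, 10.004 and 9.78 against 9.80, 9.58, 9.52 and 9.47 in control.

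No alpha ring or structural beta subunit was called in either comparison with control. The 4 alpha subunits tested, Psma2, Psma4, Psma5 and Psma7, had log2 fold changes of 0.00 to 0.09 in Atg7 KO, and the lowest adjusted p among them was 0.586. In Olig1-Cre they ran from 0.10 to 0.15. The 4 structural beta subunits, Psmb1, Psmb2, Psmb3 and Psmb4, ran from −0.03 to 0.11 in Atg7 KO and from 0.09 to 0.16 in Olig1-Cre, with 0 of 4 called in either. Psma2, for example, had 11.60, 11.56, 11.85 and 11.68 in Atg7 KO and 11.67, 11.63, 11.64 and 11.70 in control. Pomp, the chaperone that matures the core and is itself degraded as its first substrate, had 11.66, 11.73, 11.86 and 11.68 in Atg7 KO, 11.88, 11.77, 11.88 and 11.94 in Olig1-Cre and 11.80, 11.86, 11.96 and 11.78 in control. Its differences were −0.12 (SE 0.11, limma adjusted p = 0.462) in Atg7 KO and 0.02 (SE 0.11, limma adjusted p = 0.924) in Olig1-Cre, and the Cre groups differed by −0.13 (SE 0.10, limma adjusted p = 0.599).

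Among 7 lid subunits tested 1 was called in each comparison with control, Psmd8, and among 3 non-ATPase base subunits 0 were. Psmd7, the lid partner of the deubiquitinase Psmd14, had 8.99, 9.11, 9.03 and 8.80 in Atg7 KO. The Olig1-Cre livers had 8.64, 8.57, 8.54 and 8.66, and the controls 8.87, 8.57, 8.57 and 8.56. All 4 Atg7 KO livers lay above the Olig1-Cre livers, by 0.38 on average (SE 0.11, limma adjusted p = 0.181), while control replicate 1 reached into their range, and the difference from control was 0.34 (SE 0.13, limma adjusted p = 0.0623). Against that male control alone it was 0.11. Without it the difference was 0.42 (limma adjusted p = 0.0290), and without Atg7 KO replicate 4 it was 0.40 (limma adjusted p = 0.0490). These values follow the middle of 3 kept Psmd7 probes. By the brightest probe the Cre groups overlapped and differed by 0.08, and Atg7 KO differed from control by 0.20 (limma adjusted p = 0.878 and 0.425). The dimmest probe gave 0.44 and 0.09 (limma adjusted p = 0.352 and 0.796).

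Psmd2, which with Psmd1 forms the scaffold of the base, was measured near background, with 4.88, 5.02, 4.76 and 4.62 in Atg7 KO, 4.63, 4.77, 4.69 and 4.67 in Olig1-Cre and 5.79, 4.77, 5.26 and 5.01 in control. The Olig1-Cre livers lay below the controls by 0.52 (log2 fold change −0.52, SE 0.20, limma adjusted p = 0.0841), and the Atg7 KO difference was −0.39 (SE 0.21, limma adjusted p = 0.168). The highest value was that of the male control. Without that control, and with no covariate, the differences were −0.20 in Atg7 KO and −0.33 in Olig1-Cre (limma adjusted p = 0.372 and 0.128). With sex as a covariate they were −0.98 and −0.52 (limma adjusted p = 0.0180 and 0.0385), the first being the difference from that 1 control. Psmd2 also passed in Olig1-Cre without control replicate 2 (−0.67, limma adjusted p = 0.0442) and in Atg7 KO against the 2 controls of the Alb line (−0.71, limma adjusted p = 0.0361), which hold the male control. Psmd6 had 5.07, 5.58, 5.57 and 5.44 in Olig1-Cre, below 5.76, 5.71, 5.77 and 5.75 in control, at −0.33 (SE 0.13, limma adjusted p = 0.103).

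Psmd12 had 7.80, 7.56, 8.48 and 8.25 in Atg7 KO and 8.18, 8.43, 8.48 and 8.26 in Olig1-Cre. Its Atg7 KO values ran wider than the 8.34 to 8.48 of the controls, at a difference of −0.38 (SE 0.19, limma adjusted p = 0.147). The Atg7 KO livers on chip 1 had 7.80 and 7.56, and those on chip 2 had 8.48 and 8.25. From Olig1-Cre the Atg7 KO livers differed by −0.31 (SE 0.20, limma adjusted p = 0.492). Psmd1, Psmd4, Psmd11, Psmd13 and Psmd14 had differences from control between −0.11 and 0.15 in Atg7 KO and between 0.05 and 0.16 in Olig1-Cre, and 0 of the 5 were called in either. Atg7 KO replicate 3 had the highest value of its group for all 5, with 11.91 for Psmd4, the ubiquitin receptor, where the other 3 livers lay at 11.15 to 11.18. Over the 28 members the median deviation from the control mean was 0.19 in that liver and −0.11 to −0.05 in the other 3 of its group.

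In Olig1-Cre, Psmd8 and Psmb5 were higher and 0 members were lower, 7.14% of members, where 12.8% of all genes were higher and 8.47% lower, 21.2% in all. Here 19 members had a log2 fold change above 0 and 9 below, with a median of 0.09 beside −0.00018 over all genes. Members below every control were Psmb6, Psmd2 and Psmd6, and members above were Psma5, Psmb5 and Psmd8, 6 of 28 where 23.9% of all genes had groups that did not overlap. In Atg7 KO the members that did not overlap the controls were Psmd8 above and Psmb6, Psmc1 and Psmc6 below, 4 of 28 where the share among all genes was 35%. Atg7 KO set against Olig1-Cre gave 0 calls among members and 0.159% among all genes (limma), 0.0747% higher and 0.084% lower. An unadjusted p under 0.05 was found for 2 of the 28 members, Psmd7 and Psmc2, and for 1538 of all 10711 genes. Psmd7 lay above and Psmc1 and Psmc2 below every Olig1-Cre liver, 3 of 28, where 8.63% of all genes did not overlap, 4.37% above and 4.26% below. The median between the Cre groups was −0.09 beside −0.0040 over all genes, and 7 members lay above 0 and 21 below. Within chip 1 the members' median was −0.16 beside −0.012 over all genes, and within chip 2 it was 0.0012 beside 0.0045. Members are measured on the same arrays, so these counts are not of independent replicates. All Atg7 KO livers and 1 of the 4 Olig1-Cre livers are male. With sex as a covariate the difference between the Cre groups equals that from this 1 male, and 0 members were called, with a median of −0.05, where 201 genes were called in place of 17.

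Sex was also tested, and so was the difference between the 2 Cre effects. Between the 2 males and 6 females of the control and Olig1-Cre groups, with group as a covariate, 0 of 28 members were called where 0.429% of all genes were (limma). An unadjusted p under 0.05 was found for 1 member, Psmd2 at 0.44 (SE 0.18, limma adjusted p = 0.293), and for 1662 of all 10711 genes. Member intervals between the sexes reached a median of 0.31 to either side, so 0 calls do not show equal levels. The 2 males were on chip 1, and chip was not in this fit. With chip as a block 10 of all genes were called in place of 46, and 0 members. With each Cre group set against the 2 controls of its own line, the difference between the 2 Cre effects gave 0 calls among members and 0% of all genes (limma), with 0 members and 759 genes at an unadjusted p under 0.05. For Psmd8 that difference was 0.22 (SE 0.26, limma adjusted p = 0.908), and for Psmc6 it was −0.49 (SE 0.27, limma adjusted p = 0.777). The intervals of members in this test had a median width of 0.52 to either side.

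Where a gene had several probes they did not always go the same way. Of 13 members with several probes kept, 5 had probes of opposite sign in Atg7 KO against control and 5 in Olig1-Cre against control. Psmd11 had the widest gap, with log2 fold changes of −0.52 and 0.31 in Atg7 KO. Probe by probe, 1 of 45 was higher and 3 were lower in Atg7 KO, where 17.4% and 14.4% of all probes were, and in Olig1-Cre 2 were higher and 0 lower, where 11.1% and 8.27% were. The third lower probe in Atg7 KO was 1 of the 2 for Psmc2 (−0.65, SE 0.18, limma adjusted p = 0.0167), whose other probe gave −0.03 (SE 0.13, limma adjusted p = 0.904).

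**Figure D3:**
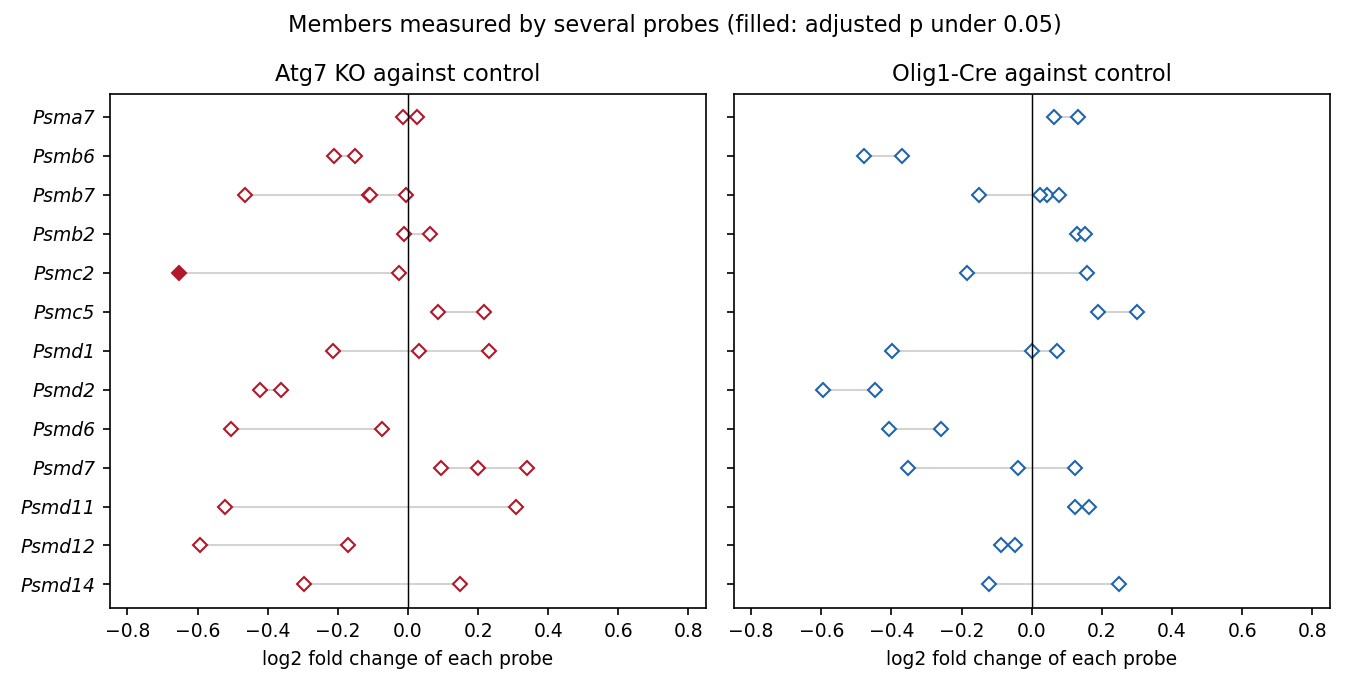
Log2 fold change of each kept probe for the 13 members with several, Atg7 KO against control on the left and Olig1-Cre against control on the right; filled points passed an adjusted p under 0.05 over all probes. The probes of Psmb6 lie together, while those of Psmd11 in Atg7 KO lie at −0.52 and 0.31.

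The same fits hold the genes that work with the constitutive particle. The immunoproteasome replaces the catalytic subunits with Psmb8, Psmb9 and Psmb10 in cells exposed to interferon and in immune cells, and Psme1 and Psme2 form its cap. Of these 5 genes 2 were higher in Atg7 KO and 4 in Olig1-Cre, with medians of 0.79 and 1.054. Psmb9 had 9.39, 9.57, 8.99 and 9.81 in Atg7 KO, 10.02, 8.83, 9.89 and 9.99 in Olig1-Cre and 7.93, 7.91, 8.76 and 8.34 in control, so that both Cre groups lay above the controls. Its differences were 1.203 (SE 0.23, limma adjusted p = 0.00241) and 1.45 (SE 0.29, limma adjusted p = 0.00841). Psme1 differed by 1.04 and 1.054 (limma adjusted p = 0.000186 and 0.00323), Psmb8 by 0.79 and 1.10 (0.0545 and 0.00866) and Psmb10 by 0.38 and 0.69 (0.0648 and 0.0174), while its partner Psme2 gave −0.37 and −0.27 (0.0661 and 0.151). Macrophage markers were also higher in the same livers, 6 of 7 in Atg7 KO and 4 of 7 in Olig1-Cre, at the levels given above, as were 1 and 2 of 4 neutrophil markers and, in Olig1-Cre, Cd3e at 4.83 to 5.45 against 4.57 to 4.94 in control (4.86 to 5.14 in Atg7 KO). Their part in these values was not tested.

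Of 6 assembly chaperones tested, Psmd10 (gankyrin), which guides the ATPase ring, was higher by 0.75 in Atg7 KO and 0.78 in Olig1-Cre (limma adjusted p = 0.00219 and 0.0160). Psmd5 was higher and Psmd9 lower in Atg7 KO (log2 fold changes 0.57 and −0.64, limma adjusted p = 0.0488 and 0.00809), and in Olig1-Cre they gave −0.04 and −0.43 (0.863 and 0.0573). Between the Cre groups 0 of the 6 were called. Psmg1, Psmg2 and Psmg3, core assembly chaperones, gave −0.20, −0.22 and −0.20 in Atg7 KO and were not called. Of 8 factors associated with the regulatory particle, Zfand2a (Airap), which is induced by arsenite and heat in mouse cells, was higher by 0.998 and 0.68 (limma adjusted p = 0.000525 and 0.0223), and 7 were not called in either comparison. Psme3, the nuclear activator, was higher in Atg7 KO by 0.51 (limma adjusted p = 0.0224). Of 6 ubiquitin and E1 enzyme genes listed, only Uba6 could be tested, at −0.01 (limma adjusted p = 0.950).

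Of 8 genes of the Nfe2l1 list tested, 0 were called in Atg7 KO, and in Olig1-Cre Mafk was higher and Mafg lower (log2 fold change −0.47), with limma adjusted p = 0.0297 and 0.0391. Mafk was detected in no control and was at least 1.06-fold higher, its Olig1-Cre mean set against the lowest detected signal of each control array. Nfe2l1 gave −0.27 and −0.18 (limma adjusted p = 0.111 and 0.280) and Nfe2l2, which encodes Nrf2, 0.35 and 0.18 (0.0538 and 0.464). The Nrf2 target list had 16 of 19 genes higher in Atg7 KO and 14 higher and 1 lower, Me1, in Olig1-Cre, with medians of 1.5 and 1.21. Cbr3, a carbonyl reductase, was higher by 6.93 (SE 0.18) in Atg7 KO and by 6.38 (SE 0.35) in Olig1-Cre (limma adjusted p = 3.7e-09 and 7.5e-06). Gsta1, Gsta2 and Abcc4 were higher by 6.57, 5.25 and 4.83 in Atg7 KO and by 6.33, 4.98 and 4.002 in Olig1-Cre. Beside these lists the median of the 28 constitutive members was −0.0020 and 0.09. This list was drawn up with earlier results of these data known, so its direction is a description.

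**Figure D4:**
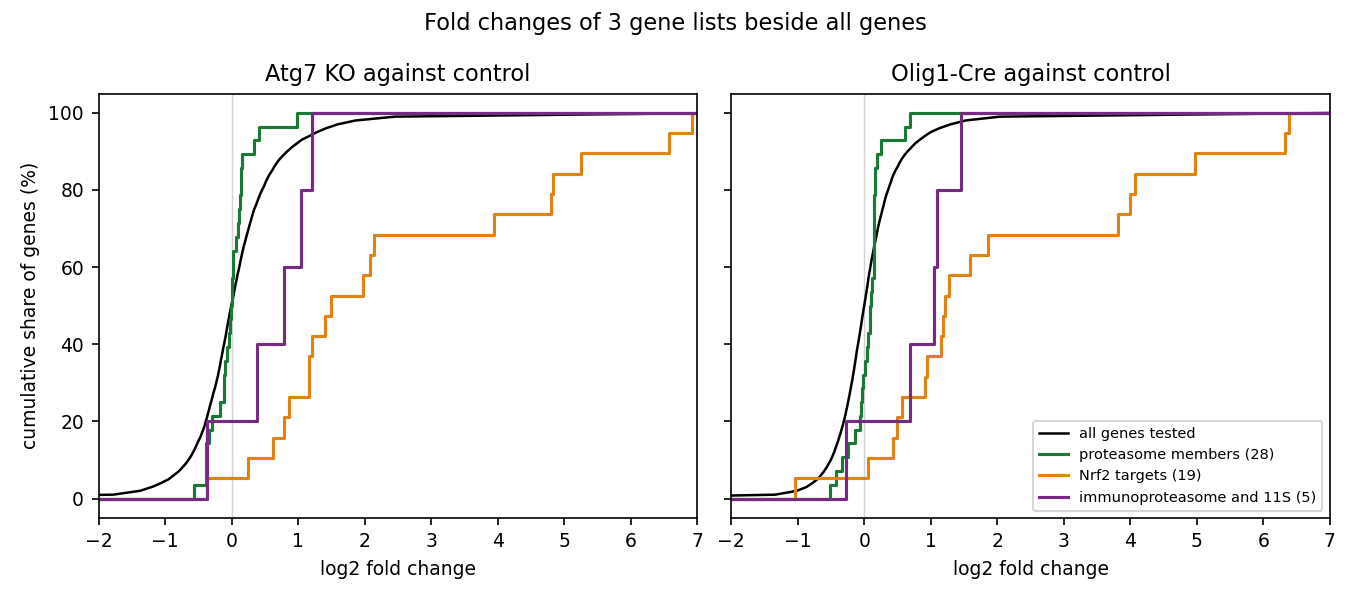
Cumulative share of genes (%) by log2 fold change, for all genes tested, the 28 constitutive members, 19 Nrf2 targets and 5 immunoproteasome and cap genes, in Atg7 KO and in Olig1-Cre against control. The member curve climbs steeply around 0, with 19 of 28 within 0.25 of 0 in Atg7 KO. The Nrf2 target curve lies mostly to the right of it, with medians of 1.5 in Atg7 KO and 1.21 in Olig1-Cre. In Olig1-Cre its lowest gene, Me1 at −1.04, lies left of the lowest member at −0.52.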

How the data were processed

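Illumina MouseWG-6 v2.0 arrays of whole-liver RNA were analysed, 4 per group, with group, line, sex and age taken from the labels. The intensities deposited by the authors are GenomeStudio bead signals without normalization. A detection p-value per probe and array was deposited beside it. The deposited log2 values, for which the submitters' notes name limma 3.22.1, differ from those computed here by at most 0.0270. The study's methods name a cubic spline and the median probe of a gene.

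Signals were normalized with neqc (limma 3.58.1, R 4.3.3, offset 16, negative controls inferred from the detection p-values). Of 45281 probes, 34885 had 1 symbol, 18 several and 10378 none in the platform table. Probes detected at p under 0.05 on at least 4 arrays were kept, 19528 in all, and 16727 with 1 symbol gave 10711 genes by the median probe. lmFit and eBayes were run for each pair of groups without covariates. Fold changes are differences of log2 values. With intensities there are no counts, and the number of arrays limits the precision. Tests were checked on simulated arrays with independent noise per gene, where only the recovery of log2 changes of 4 was required. The recovery of differences as small as those of most members is not given here.

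Full values are given for Psmb5, Psmb6, Psmb7, Pomp and the 3 highest and 3 lowest members of each comparison, and from related lists for called genes, up to 4 by size of change, and for fixed subunits. Values of Psma2, Psmc3, Psmc4 and Psmd4, and of single probes, were chosen after they were seen. The members and lists were chosen with earlier results of these data known. The labels say nothing of litters, so the p-values cover only the spread among these 12 livers. Promoter windows are RefSeq's.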

Additional observations from a re-analysis of the deposited data

Results flagged for a closer look

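A total of 7 of the 84 sets of 4 arrays, 1 for each member and group, held an array far from the other 3, where chance gives about 1 in 20, or 4.2. Of these 3 lie in Atg7 KO replicate 3, with the highest value of its group for Psmd1 (11.64, the next 11.38), Psmd4 (11.91, the next 11.18) and Psmd13 (10.84, the next 10.39). Psmb5 was lowest in Atg7 KO replicate 2 (8.41, the next 9.27). In the controls, Psmb6 was highest in replicate 4 (11.04, the next 10.90), Psmd1 was lowest in replicate 4 (10.85, the next 11.38) and Psmd7 was highest in replicate 1 (8.87, the next 8.57).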

How the results depend on the processing

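Psmd8 in Atg7 KO against control passed in all 24 alternatives, from 0.44 to 1.58, of which 2 (sex as a covariate, males alone) rest on the 1 male control. The lowest came with no filter on detection, where its undetected probe entered the median. In Olig1-Cre that setting gave 0.28 (adjusted p = 0.0823). No paired analysis was possible because the labels carry no replicate numbers. Chip as a block changed no call among members.

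Scaling each array to 1 median moved the median of all genes by 0.59 for Atg7 KO and 0.40 for Olig1-Cre against control, and by 0.18 between the Cre groups. The members' medians were then 0.53, 0.52 and 0.028, which is −0.06, 0.12 and −0.15 relative to all genes. Calls in Atg7 KO were 5 higher and 0 lower, where 45.3% of all genes were higher and 1.52% lower. Between sexes 24 members were called, all lower in males, where 37% of all genes were lower. The members' median between sexes was −0.70 beside −0.49 over all genes. This scaling turned the sign of Psmb6 (0.35), Psmb7 (0.46), Psmd2 (0.079), Psmc1 (0.34) and Pomp (0.28) in Atg7 KO. It also turned that of Psmb7 between Cre groups (0.066) and of Psmb7 (0.40) and Psmd6 (0.085) in Olig1-Cre. The cause was not tested.

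In Atg7 KO against control, 2 members were higher with quantiles without background correction, a cubic spline, no filter on detection and all 12 arrays in 1 fit, Psmd7 being the second. In the fit of all 12 arrays 3 were lower, Psmc2 being added. With sex as a covariate and in males alone 1 was lower, Psmd2; both settings set the 4 Atg7 KO livers against the 1 male control and give the same differences, so they are not separate checks and the spread of that arm is not measured. Against Alb-line controls alone 2 were lower, Psmc6 and Psmd2, without Psmc1. Within chip 1 and chip 2 0 were lower, and the median was −0.096 and 0.11. Between the Cre groups the median was −0.16 within chip 1 and 0.0012 within chip 2. In Olig1-Cre against control the count of higher members was 1 with no filter, within chip 2 and with the methods' t-test, and 0 within chip 1 and with Olig1-line controls alone. With sex as a covariate 1 was lower (Psmd2), and in females alone 1 (Psmb6).

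Leaving out 1 array gave 1 to 2 higher, 1 to 3 lower and medians of −0.05 to 0.05 in Atg7 KO, 0 calls and medians of −0.17 to −0.06 between the Cre groups, and 1 to 2 higher, 0 to 1 lower and medians of 0.06 to 0.15 in Olig1-Cre. The sex test and the test between the 2 Cre effects gave 0 calls among members without any 1 array.

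Signs of small differences also turned. Psmb5 between the Cre groups was 0.020 with sex as a covariate or males alone, 0.060 within chip 2 and 0.025 without Atg7 KO replicate 2 (leave-one-out range −0.30 to 0.025), and Psmb6 was −0.091 with sex as a covariate or males alone. Psmb7 was 0.0047 between the Cre groups without Atg7 KO replicate 3 (range −0.12 to 0.0047). In Olig1-Cre against control, Psmb7 was 0.078 by its brightest probe, 0.016 within chip 1 and 0.012 without Olig1-Cre replicate 4 (range −0.10 to 0.012). Pomp was −0.015 with a cubic spline, −0.0038 within chip 1, −0.0070 without Olig1-Cre replicate 4, and −0.0011 and −0.0058 without control replicate 1 and 4 (range −0.0070 to 0.054). Psmc6 in Atg7 KO was not called with sex as a covariate, within either chip, in males alone or with median scaling (adjusted p = 0.403). Dim probes, such as those of Psmc6, Psmd2 and Psmd6, have compressed differences near background.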
